A study of Homo sapiens with 18 samples.

Results

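The DNA replication and S-phase genes described here are 52 genes whose products license origins, unwind and copy DNA, supply nucleotides, package the new DNA or control entry into S phase. They were chosen by their gene symbols, and each of the 52 was found as 1 row among the 21411 genes of the count and CPM tables. RNA was measured in 18 libraries from 3D spheroids of MDA-MB-231, an established human triple-negative breast cancer cell line, with 3 biological replicates in each of 6 conditions. The spheroids were grown in Matrigel for 7 days from 50000 cells per well, and the conditions differ in the Notch ligand Jagged1, encoded by JAG1.

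Jag1WT is the unmodified parental line. Jag1KO cells carry a CRISPR-Cas9 knockout of Jagged1 and are a mixture of single-cell clones. Jag1KO + rescue cells are Jag1KO cells given a plasmid that expresses Jagged1, and Jag1KO + ctrl cells are Jag1KO cells given the empty vector, both after drug selection for the plasmid. In siCtrl and siJag1, Jag1WT cells were transfected before seeding with nontargeting siRNA or with a pair of siRNAs against Jagged1. Every condition therefore shares the parental line, the matrix and the culture time, while both plasmid lines also share the knockout and the selection.

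Cells copy their DNA once per division. In G1, the origin recognition complex with CDC6 and CDT1 loads the MCM2 to MCM7 ring onto origins. In S phase, CDC45 and the GINS complex turn the ring into an active helicase, and polymerases tethered by the PCNA clamp copy both strands. Many of these genes are transcribed under E2F factors as cells pass from G1 into S phase, so their messenger RNA is abundant in dividing populations and low in resting ones. In bulk RNA, fewer cells in S phase and less of these RNAs per cell cannot be told apart.

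JAG1 itself was between 433 and 657 CPM in the 9 libraries of Jag1WT, Jag1KO + rescue and siCtrl and between 110.2 and 205 CPM in the 9 libraries of Jag1KO, Jag1KO + ctrl and siJag1, so no library went against its label. CPM here are the deposited counts scaled by the authors to the size of each library. The JAG1 difference had an FDR of 0.0163 between Jag1WT and Jag1KO, 0.0227 between Jag1KO + rescue and Jag1KO + ctrl, and 0.111 in siCtrl against siJag1 (0.0181 with the replicate number as a block, edgeR). Reads counted on genes ranged from 10330581 to 18327890 per library. VIM, CD44, EGFR, KRT18 and S100A6, which these cells express, were above 127 CPM in every library, and of 5 genes listed as low or absent in them ESR1, PGR and CDH1 stayed at or under 1.77 CPM. The other two were present, EPCAM between 5.18 and 8.99 CPM and ERBB2 between 32.5 and 59.98 CPM. Of 6 fibroblast genes, COL1A1 was between 2.66 and 10.04 CPM and the rest were at or under 1.35 CPM. Of 6 endothelial and blood genes, VWF, PTPRC and CD3E were at or under 0.927 CPM, HBB reached 7.68, PECAM1 was between 0.954 and 15.1 and CD68 between 88.9 and 209 CPM.

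The promoters of the genes are shown first because a sequence word bound by E2F factors recurs in them. RefSeq promoters (GRCh38.p14), each running from 250 bases before to 50 bases after a start site, were matched for 45 of the 52 genes. The 3 words of the E2F type, TTTCGCGC, TTTGGCGC and TTTCCCGC, were searched on both strands. At least 1 of the 3 was in 25 of the 45 genes (55.6%), against 5.71% of 9915 expressed genes (over 1 CPM in 9 or more of the 18 libraries) and 3.30% of all 27305 genes with a promoter. TTTCGCGC or TTTGGCGC alone was in 16 of the 45 (35.6%, against 2.51%). By comparison CCAAT, a common promoter word, was in 55.6% of the 45 and in 43.9% of the expressed genes. Words on opposite strands overlap in MCM2, MCM6 and TIPIN. A match describes the letters only.

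The stretches below are on the strand of the gene, 5′ to 3′, with the first 2 words in capitals. They show MCM2, the single member that passed the threshold in a main comparison, and 6 more genes with a word before the start site. In MCM2 (chr3:127598402-127598431, + strand) a palindromic pair of words lies just past the start site, and 30 bases around it are given. In MCM6 (chr2:135876496-135876621, − strand) another pair, TTTGGCGC overlapping GCGCGAAA, which is no palindrome, is present at 2 places, beginning 152 and 90 bases before the start site. A word, on either strand, begins 20 bases before the start site in E2F1 (chr20:33686386-33686431, − strand), 160 in UHRF1 (chr19:4909958-4910017, + strand), 137 in POLA1 (chrX:24693755-24693814, + strand), 53 in POLA2 (chr11:65261883-65261942, + strand) and 18 in POLE (chr12:132687343-132687386, − strand).
MCM2: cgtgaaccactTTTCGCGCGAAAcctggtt
MCM6: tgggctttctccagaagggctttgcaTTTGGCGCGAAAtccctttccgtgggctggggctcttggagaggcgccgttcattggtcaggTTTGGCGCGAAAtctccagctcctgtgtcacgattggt
E2F1: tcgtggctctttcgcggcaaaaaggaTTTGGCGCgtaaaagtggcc
UHRF1: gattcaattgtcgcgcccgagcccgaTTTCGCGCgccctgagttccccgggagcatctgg
POLA1: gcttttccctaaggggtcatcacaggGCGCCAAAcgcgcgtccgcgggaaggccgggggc
POLA2: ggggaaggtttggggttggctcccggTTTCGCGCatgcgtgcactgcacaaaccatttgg
POLE: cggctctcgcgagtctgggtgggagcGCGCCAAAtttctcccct

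The 52 genes varied more between libraries of 1 condition than other genes did, and the variation was shared across them. The ratio of the highest to the lowest of the 3 libraries had a median over the members of 1.503 in Jag1WT, 2.27 in Jag1KO, 1.67 in Jag1KO + rescue, 2.98 in Jag1KO + ctrl, 1.57 in siCtrl and 3.24 in siJag1. Over all 12803 expressed genes the same median was between 1.22 and 1.37. The spread was therefore largest in the 3 conditions with less JAG1, where 1 library or a pair stood apart from the rest.

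In siJag1 the single highest library was replicate 2 for 52 of 52 members, against 40.8% of all genes. In Jag1KO + ctrl, replicate 3 was the lowest library for 52 of 52 members (43.6% of all genes) and replicate 2 the highest for 51. In Jag1KO, replicate 1 was the lowest for 44 of 52 (41.2% of all genes) and the highest for 0, while replicate 3 was the highest for 36 and replicate 2 for 16. The mean over the members of log2(CPM + 1) gives the same order. It was 3.83, 4.71 and 4.95 in replicates 1, 2 and 3 of Jag1KO, 5.03, 5.36 and 3.76 in Jag1KO + ctrl and 3.68, 5.33 and 3.77 in siJag1. In the conditions with more JAG1 it was between 3.57 and 4.00 in Jag1WT, 3.72 and 4.10 in Jag1KO + rescue, and 3.71 and 4.27 in siCtrl. Jag1KO replicate 1, Jag1KO + ctrl replicate 3 and siJag1 replicates 1 and 3 thus lay within the range of the 9 libraries with more JAG1, and the other 5 lay above it. Between conditions lay a median of 36.0% of a member's variance over the 18 libraries (17.1% to 62.0%), against 42.9% over all genes. These shares were not corrected for the part that spread between libraries adds to them even where conditions do not differ.

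**Figure D1:**
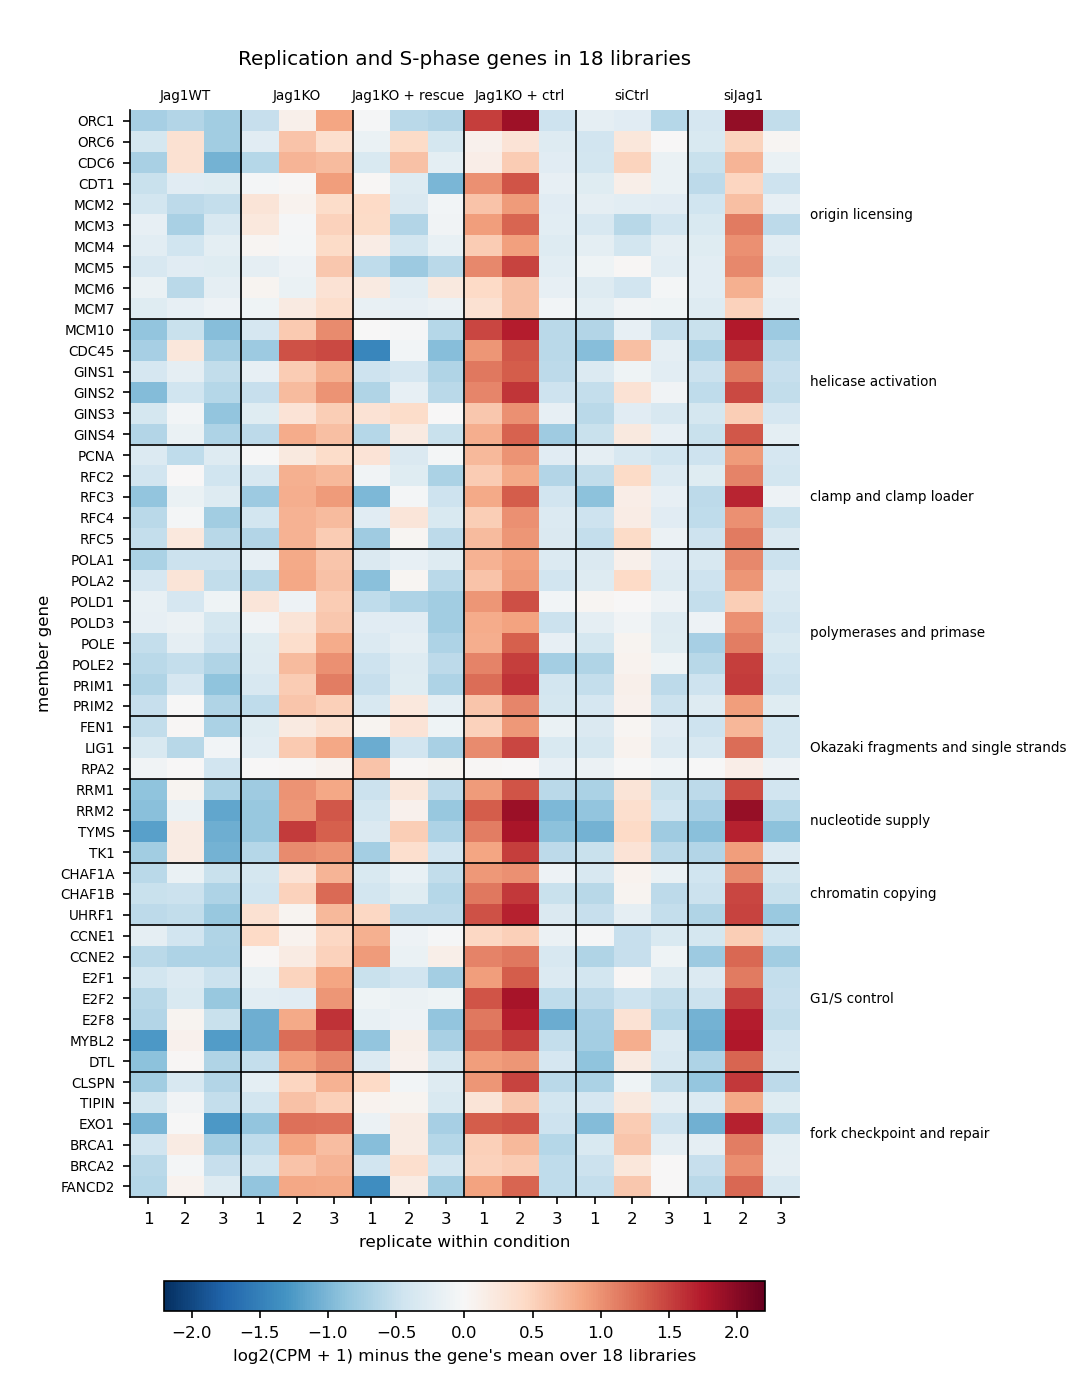
Heat map of the 52 members (rows, ordered by role) in 18 libraries (columns, 3 replicates in each of 6 conditions), colored by log2(CPM + 1) minus the gene's own mean over the 18 libraries. Jag1KO replicates 2 and 3, Jag1KO + ctrl replicates 1 and 2 and siJag1 replicate 2 are red down most of the column, and Jag1KO replicate 1, Jag1KO + ctrl replicate 3 and siJag1 replicates 1 and 3 are pale or blue.

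Per length, the most abundant member RNAs in Jag1WT were MCM7 at 45.8 ± 2.47 RPKM (SD, n = 3), RPA2 at 23.4 ± 3.65, MCM3 at 22.8 ± 4.19 and PCNA at 21.9 ± 2.29. RPKM are the authors' reads scaled to gene length and library size. The lowest were ORC1 at 0.762 ± 0.0468 RPKM, E2F8 at 0.695 ± 0.254 and E2F2 at 0.0613 ± 0.0417. Although the 6 MCM2 to MCM7 proteins form a ring with 1 copy of each, their RNA levels in Jag1WT differed, with MCM4 at 10.8 ± 0.902, MCM6 at 8.32 ± 1.40, MCM2 at 8.10 ± 0.518 and MCM5 at 5.65 ± 0.234 RPKM beside the levels of MCM7 and MCM3. The SDs of MCM6 and MCM2 overlap, and those of MCM7 and MCM3 do not.

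In Jag1WT against Jag1KO, with fold changes given as the first group over the second, all 51 members tested had a lower mean in Jag1WT. Their median log2 fold change was −0.82, against −0.01 over all 12928 genes tested. A gene was called at an FDR below 0.05 and a fold change above 1.5, and MCM2 was the 1 member called. Over all genes 0.294% were called lower and 0.41% higher in Jag1WT. An unadjusted p below 0.05 was reached by 36 of the 51 members, all lower in Jag1WT, against 4.49% of all genes. The 3 libraries of Jag1WT lay below all 3 of Jag1KO for 21 members (6.61% of all genes). With 3 libraries against 3, a permutation test of 1 gene cannot give an exact two-sided p under 0.1.

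Leaving out Jag1KO replicate 1, 39 of 51 members were called lower (4.68% of all genes), with a median of −1.10. That replicate was the lowest Jag1KO library for 44 of 52 members, so a wider gap without it follows from their own values. Leaving out any other library, 0 were called. DESeq2 on all 6 libraries called 9 members (0.92% of all genes) and limma 1 (0.294%). Members with an unadjusted p below 0.05 numbered 14 without Jag1KO replicate 3 (2.08% of all genes) and 50 without Jag1KO replicate 1 (14.4%).

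In Jag1KO + rescue against Jag1KO + ctrl, 50 of the 51 members tested were lower with the rescue, with a median log2 fold change of −1.02, and the exception was RPA2. edgeR called 0 members. It called 0 of 12894 genes lower (0%) and 1 higher (0.00776%). An unadjusted p below 0.05 was reached by 27 members, all lower, against 16.4% of all genes, and limma called 0 (0% of all genes) and DESeq2 18 (7.72%). The groups did not overlap for 7 members (CHAF1A, E2F1, LIG1, MCM5, MCM7, POLD1 and POLE), against 16% of all genes. Without Jag1KO + ctrl replicate 3, 42 of 51 members were called lower (14.8% of all genes), with a median of −1.35, and 47 had an unadjusted p below 0.05 (23.4%). That replicate was the lowest Jag1KO + ctrl library for 52 of 52 members, so a wider gap without it follows from their own values. Without Jag1KO + ctrl replicate 2 the median was −0.63, 47 of 51 members were lower and 8 had such a p (8.46%). With any library other than Jag1KO + ctrl replicate 3 left out, 0 were called.

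In siCtrl against siJag1, 49 of the 51 members were lower in siCtrl, with a median of −0.50, and edgeR, limma and DESeq2 each called 0 (0%, 0% and 0.0234% of all genes lower). edgeR called 2 genes higher (0.0156%). An unadjusted p below 0.05 was reached by 0 members (1.23% of all genes were lower with such a p), and no member had groups that did not overlap in that direction (5.33% of all genes). With the replicate number as a block in edgeR the median was −0.36, with 1 member lower at such a p (382 of 12823 genes) and 0 called. Without siJag1 replicate 2 the direction turned. That replicate was the highest siJag1 library for 52 of 52 members, so its removal was bound to raise these fold changes. The median became 0.29, and 48 of the 51 members were higher in siCtrl, 11 of them without overlap between the groups (9.79% of all genes), though 0 were called. Without siJag1 replicate 2, 4 members were higher in siCtrl with an unadjusted p below 0.05 in edgeR (480 of 12699 genes). Without siJag1 replicate 1 or 3, 6 and 5 members were lower with an unadjusted p below 0.05 (1.91% and 2.3% of all genes). The 3 members still lower without replicate 2 were GINS3, MCM4 and MCM6.

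**Figure D2:**
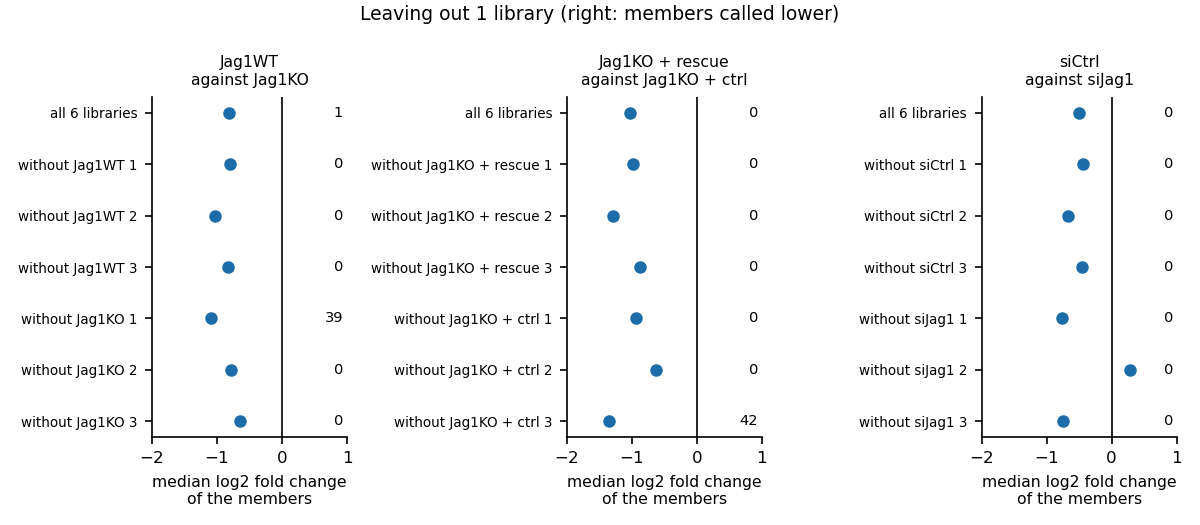
Median log2 fold change of the 51 members tested (x axis) in each main comparison with all 6 libraries and with 1 library left out at a time (y axis). The digits at the right give the members called lower, which were 39 without Jag1KO replicate 1, 42 without Jag1KO + ctrl replicate 3 and 0 or 1 in every other fit, and the median crosses 0 in siCtrl against siJag1 without siJag1 replicate 2.

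Among the origin licensing genes, all 6 ring subunits separated Jag1WT from Jag1KO. MCM2 to MCM7 were each lower in every Jag1WT library than in any Jag1KO library, as were ORC1 and CDT1, whereas ORC6 and CDC6 overlapped. Over all genes 6.61% separated in this way. The 10 genes had a median log2 fold change of −0.60 between Jag1WT and Jag1KO, −0.55 in the rescue comparison and −0.37 in the siRNA comparison.

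MCM2 (Entrez gene 4171), a ring subunit, was at 30.4, 26.9 and 27.8 CPM in Jag1WT, 49.5, 42.8 and 53.5 in Jag1KO, 54.7, 32.2 and 38.5 in Jag1KO + rescue, 63.1, 78.1 and 33.7 in Jag1KO + ctrl, 35.1, 34.3 and 33.8 in siCtrl and 29.4, 64.2 and 35.4 in siJag1. It averaged 28.4 ± 1.82 CPM in Jag1WT and 48.6 ± 5.41 in Jag1KO (SD, n = 3), and all 3 Jag1KO libraries were above all 3 Jag1WT libraries, replicate 1 included. Its log2 fold change in Jag1WT against Jag1KO was −0.78 ± 0.13 (SE, 95% interval −1.07 to −0.48, FDR 0.0445), and with any library other than Jag1KO replicate 1 left out it was no longer called. MCM5 (Entrez gene 4174), another subunit, was at 17.2, 18.6 and 18.3 CPM in Jag1WT, 19.2, 20.6 and 34.01 in Jag1KO, 14.9, 12.4 and 14.4 in Jag1KO + rescue, 47.5, 64.5 and 18.9 in Jag1KO + ctrl, 20.9, 22.7 and 18.8 in siCtrl and 18.8, 47.6 and 17.3 in siJag1. Jag1KO + rescue was below Jag1KO + ctrl in every library for MCM5, while Jag1KO replicates 1 and 2 lay close to Jag1WT.

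CDC6 (Entrez gene 990), the loader that recruits the ring, was at 39.6, 83.5 and 31.4 CPM in Jag1WT, 42.4, 111 and 108 in Jag1KO, 52.1, 104 and 56.9 in Jag1KO + rescue, 72.7, 97.3 and 54.9 in Jag1KO + ctrl, 49.6, 92.7 and 59.2 in siCtrl and 46.6, 111 and 59.1 in siJag1. In CDC6 replicate 2 was the highest library of every condition, and its log2 fold changes were −0.76 ± 0.44 (SE, 95% interval −1.78 to 0.25, FDR 0.663), −0.08 ± 0.31 (SE, 95% interval −0.80 to 0.64, FDR 0.869) and −0.11 ± 0.35 (SE, 95% interval −0.92 to 0.70, FDR 0.985) in the 3 comparisons, so each interval holds 0. CDT1 (Entrez gene 81620), its partner in loading, was at 5.05, 6.16 and 6 CPM in Jag1WT, 7.24, 7.65 and 15.1 in Jag1KO, 7.63, 5.94 and 3.22 in Jag1KO + rescue, 16.1, 21.03 and 6.5 in Jag1KO + ctrl, 6.01, 8.23 and 6.62 in siCtrl and 4.65, 10.7 and 5.18 in siJag1. CDT1 was raised in Jag1KO replicate 3 and in Jag1KO + ctrl replicates 1 and 2, and siJag1 replicate 2 was above both other siJag1 libraries. In siCtrl against siJag1 its log2 fold change was 0.02 ± 0.34 (SE, 95% interval −0.76 to 0.81, FDR 0.998), among the 3 smallest of the members.

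ORC1 (Entrez gene 4998), the largest subunit of the origin recognition complex, was at 2.4, 2.63 and 2.35 CPM in Jag1WT, 3.001, 5.1 and 9.36 in Jag1KO, 4.57, 2.76 and 2.64 in Jag1KO + rescue, 15.3, 19.7 and 3.13 in Jag1KO + ctrl, 3.96, 3.78 and 2.66 in siCtrl and 3.4, 20.7 and 2.87 in siJag1. The highest library was siJag1 replicate 2, above both other siJag1 libraries. ORC1 had the largest log2 fold change of the members in the rescue comparison, −1.94 ± 0.61 (SE, 95% interval −3.34 to −0.54, FDR 0.111), and in the siRNA comparison, −1.38 ± 0.74 (SE, 95% interval −3.09 to 0.33, FDR 0.969). The smallest in the rescue comparison was ORC6, a small subunit of the same complex, at −0.06 ± 0.28 (SE, 95% interval −0.71 to 0.59, FDR 0.893), beside CCNE1 at −0.06 ± 0.40 (SE, 95% interval −0.97 to 0.85, FDR 0.924) and CDC6. MCM7 and MCM6, at −0.37 ± 0.14 (SE, 95% interval −0.69 to −0.05, FDR 0.459) and −0.40 ± 0.17 (SE, 95% interval −0.81 to −0.003, FDR 0.563), were among the 3 members that differed least in Jag1WT against Jag1KO.

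The helicase activators varied over a wider range. Their 6 genes had median log2 fold changes of −1.21, −1.51 and −0.62 in the 3 comparisons, all lower in the first group, with none called and 5, 4 and 0 at an unadjusted p below 0.05. Over all genes 4.49%, 16.4% and 1.23% were lower with such a p. CDC45 (Entrez gene 8318), which joins the ring in the active helicase, was at 4.8, 10.5 and 4.76 CPM in Jag1WT, 4.57, 24.5 and 25.4 in Jag1KO, 2.59, 8.27 and 4.04 in Jag1KO + rescue, 17.99, 24.03 and 5.42 in Jag1KO + ctrl, 4.03, 14.4 and 7.46 in siCtrl and 5.05, 28.3 and 5.39 in siJag1. Jag1KO replicate 1 was at the level of Jag1WT replicates 1 and 3 for CDC45, and Jag1KO replicates 2 and 3 were several times higher. Its log2 fold changes were −1.45 ± 0.61 (SE, 95% interval −2.84 to −0.05, FDR 0.543), −1.67 ± 0.59 (SE, 95% interval −3.04 to −0.30, FDR 0.124) and −0.59 ± 0.73 (SE, 95% interval −2.28 to 1.09, FDR 0.969). GINS2 (Entrez gene 51659), a subunit of the GINS complex, was at 1.33, 2.33 and 1.89 CPM in Jag1WT, 2.15, 6.26 and 7.93 in Jag1KO, 1.84, 2.97 and 1.99 in Jag1KO + rescue, 8.45, 12.3 and 2.29 in Jag1KO + ctrl, 2.12, 4.59 and 3.27 in siCtrl and 2.04, 11.2 and 2.1 in siJag1. GINS2 was among the 3 largest in the rescue comparison at −1.77 ± 0.57 (SE, 95% interval −3.07 to −0.46, FDR 0.112), and MCM10, a factor for helicase firing, among the 3 largest in the siRNA comparison at −1.20 ± 0.70 (SE, 95% interval −2.82 to 0.42, FDR 0.969).

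The sliding clamp and its loader had medians of −0.77, −0.73 and −0.40 over 5 genes, none called. PCNA (Entrez gene 5111), the clamp, was at 33.3, 27.8 and 33.8 CPM in Jag1WT, 41.04, 48.1 and 55.1 in Jag1KO, 50.9, 32.8 and 39.9 in Jag1KO + rescue, 68.7, 83.3 and 34.5 in Jag1KO + ctrl, 36, 32.3 and 30.1 in siCtrl and 29.8, 79.9 and 31.7 in siJag1. In PCNA all 3 libraries of Jag1KO lay above Jag1WT, and Jag1KO + rescue and Jag1KO + ctrl overlapped. Its log2 fold changes were −0.61 ± 0.15 (SE, 95% interval −0.95 to −0.26, FDR 0.195), −0.60 ± 0.31 (SE, 95% interval −1.33 to 0.13, FDR 0.222) and −0.52 ± 0.37 (SE, 95% interval −1.38 to 0.33, FDR 0.969). RFC3 (Entrez gene 5983), a loader subunit, was at 6.31, 11.05 and 9.85 CPM in Jag1WT, 6.65, 22.01 and 24.6 in Jag1KO, 5.66, 11.9 and 8.73 in Jag1KO + rescue, 22.8, 32.5 and 8.9 in Jag1KO + ctrl, 6.08, 13.8 and 10.7 in siCtrl and 7.94, 41.6 and 11.3 in siJag1. Replicate 1 was the lowest library for RFC3 in every condition other than Jag1KO + ctrl, and Jag1KO replicate 1 lay within the range of Jag1WT.

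The 8 polymerase and primase genes were all lower in the first group of Jag1WT against Jag1KO and of the rescue comparison (medians −0.73 and −1.10), and 7 of 8 were lower in siCtrl (median −0.48). At an unadjusted p below 0.05 were 6, 7 and 0 of them, and 4.49%, 16.4% and 1.23% of all genes were lower with such a p. POLA1 (Entrez gene 5422), the catalytic subunit of the polymerase that starts each strand, was at 8.77, 10.4 and 10.3 CPM in Jag1WT, 12.98, 27.2 and 23.1 in Jag1KO, 11.7, 12.9 and 11.9 in Jag1KO + rescue, 25.8, 28.6 and 11.8 in Jag1KO + ctrl, 11.7, 16.1 and 12.3 in siCtrl and 11.4, 31.9 and 10.4 in siJag1. Its libraries in Jag1WT and Jag1KO did not overlap, and its log2 fold changes were −1.11 ± 0.27 (SE, 95% interval −1.73 to −0.48, FDR 0.189), −0.87 ± 0.31 (SE, 95% interval −1.59 to −0.14, FDR 0.128) and −0.42 ± 0.43 (SE, 95% interval −1.41 to 0.56, FDR 0.969). POLE2 (Entrez gene 5427), a subunit of the leading-strand polymerase, was at 5.05, 5.34 and 4.76 CPM in Jag1WT, 6.46, 13.7 and 17.2 in Jag1KO, 5.66, 6.5 and 5.1 in Jag1KO + rescue, 18.5, 24.99 and 4.39 in Jag1KO + ctrl, 4.74, 8.63 and 7.46 in siCtrl and 4.93, 25.1 and 5.67 in siJag1. POLE2 was above 13 CPM in 5 libraries and below 9 CPM in the other 13.

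PRIM1 (Entrez gene 5557), the primase that lays down RNA primers, was at 2.15, 2.86 and 1.7 CPM in Jag1WT, 2.94, 6.41 and 9.94 in Jag1KO, 2.52, 3.18 and 2.11 in Jag1KO + rescue, 10.8, 14.1 and 2.77 in Jag1KO + ctrl, 2.48, 4.38 and 2.36 in siCtrl and 2.66, 13.6 and 2.59 in siJag1. PRIM1 had a log2 fold change of −1.83 ± 0.55 (SE, 95% interval −3.09 to −0.56, FDR 0.108) in the rescue comparison, among the 3 largest there. POLD1, the catalytic subunit of the lagging-strand polymerase, had one of the 3 smallest in the siRNA comparison at 0.01 ± 0.30 (SE, 95% interval −0.67 to 0.70, FDR 0.998).

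Of the genes for joining Okazaki fragments, FEN1 (Entrez gene 2237), the flap nuclease, was at 38.2, 57.4 and 34.3 CPM in Jag1WT, 46.4, 64.03 and 71.1 in Jag1KO, 58.7, 69.4 and 52.2 in Jag1KO + rescue, 80.4, 109 and 50.2 in Jag1KO + ctrl, 44.7, 57.9 and 47.04 in siCtrl and 40.4, 93.9 and 41.9 in siJag1. FEN1 overlapped between the groups of each comparison, with log2 fold changes of −0.49 ± 0.23 (SE, 95% interval −1.02 to 0.04, FDR 0.596), −0.41 ± 0.27 (SE, 95% interval −1.04 to 0.21, FDR 0.309) and −0.24 ± 0.32 (SE, 95% interval −0.99 to 0.51, FDR 0.974). LIG1 (Entrez gene 3978), the ligase that seals the fragments, was at 16.1, 13.1 and 19.8 CPM in Jag1WT, 17.4, 31.05 and 37.9 in Jag1KO, 9.13, 15.2 and 12.3 in Jag1KO + rescue, 43.2, 58.5 and 16.1 in Jag1KO + ctrl, 15.6, 21.9 and 16.6 in siCtrl and 15.9, 49.9 and 15.2 in siJag1. Every Jag1KO + rescue library was below every Jag1KO + ctrl library for LIG1, and Jag1KO replicate 1 lay within Jag1WT. RPA2, which coats single strands, differed least of the members between Jag1WT and Jag1KO, with log2 fold changes of −0.20 ± 0.13 (SE, 95% interval −0.50 to 0.11, FDR 0.714) in Jag1WT against Jag1KO and −0.08 ± 0.11 (SE, 95% interval −0.34 to 0.18, FDR 0.975) in siCtrl against siJag1, and of 0.31 in the rescue comparison. Its CPM averaged 48.8 ± 2.3 in siCtrl and 51.6 ± 4.91 in siJag1 (SD, n = 3). RPA2 was at 79.5, 51.9 and 53.0 CPM in Jag1KO + rescue and 51.9, 51.4 and 44.9 in Jag1KO + ctrl, with rescue replicate 1 set apart.

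The 4 nucleotide supply genes had medians of −1.31, −1.09 and −0.78, all lower in the first group, and groups that overlapped in each comparison. RRM2 (Entrez gene 6241), the regulated subunit of ribonucleotide reductase, was at 17.4, 30.4 and 14.6 CPM in Jag1WT, 18.5, 67.3 and 88.2 in Jag1KO, 25.1, 35.8 and 18.3 in Jag1KO + rescue, 85.9, 127 and 16.5 in Jag1KO + ctrl, 18.03, 43.8 and 24.4 in siCtrl and 19.95, 130.3 and 21.5 in siJag1. The libraries with little RRM2 lay between 14.6 and 43.8 CPM and the 5 highest between 67.3 and 130.3 CPM. Its log2 fold changes were −1.49 ± 0.52 (SE, 95% interval −2.69 to −0.28, FDR 0.432), −1.53 ± 0.63 (SE, 95% interval −2.98 to −0.08, FDR 0.15) and −1.001 ± 0.73 (SE, 95% interval −2.69 to 0.69, FDR 0.969). TYMS (Entrez gene 7298), which makes thymidylate, was at 20.2, 54.2 and 21.98 CPM in Jag1WT, 26.3, 141 and 120.3 in Jag1KO, 38.1, 69.9 and 29.5 in Jag1KO + rescue, 105, 167 and 24.9 in Jag1KO + ctrl, 22.7, 65.2 and 27.2 in siCtrl and 24.7, 157 and 25.2 in siJag1. TYMS had one of the 3 largest differences in Jag1WT against Jag1KO, −1.59 ± 0.61 (SE, 95% interval −2.99 to −0.19, FDR 0.478), and its replicate 2 was at 2.57 times the mean of replicates 1 and 3 in Jag1WT and at 2.62 times in siCtrl.

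Of the chromatin genes, UHRF1 (Entrez gene 29128), which guides DNA methylation after replication, was at 14.6, 14.96 and 12.1 CPM in Jag1WT, 28.3, 23.2 and 37.4 in Jag1KO, 31.1, 14.6 and 14.7 in Jag1KO + rescue, 60.7, 74.5 and 17.7 in Jag1KO + ctrl, 15.4, 19.2 and 15.2 in siCtrl and 13.8, 64.5 and 12.2 in siJag1. UHRF1 separated Jag1WT from Jag1KO in every library, Jag1KO replicate 1 included, with log2 fold changes of −1.10 ± 0.20 (SE, 95% interval −1.56 to −0.64, FDR 0.0653), −1.35 ± 0.52 (SE, 95% interval −2.55 to −0.15, FDR 0.138) and −0.87 ± 0.60 (SE, 95% interval −2.27 to 0.54, FDR 0.969). CHAF1B (Entrez gene 8208), a subunit of the histone chaperone CAF-1, was at 3.85, 3.91 and 3.26 CPM in Jag1WT, 4.04, 8.73 and 15.2 in Jag1KO, 4.16, 4.67 and 3.4 in Jag1KO + rescue, 14.2, 19.1 and 3.85 in Jag1KO + ctrl, 3.47, 6.07 and 3.58 in siCtrl and 3.91, 17.8 and 3.85 in siJag1. In CHAF1B the lowest Jag1KO library exceeded the highest Jag1WT library by a small margin, and siJag1 replicate 2 stood far above its partners. The 3 chromatin genes had medians of −1.10, −1.35 and −0.87.

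**Figure D3:**
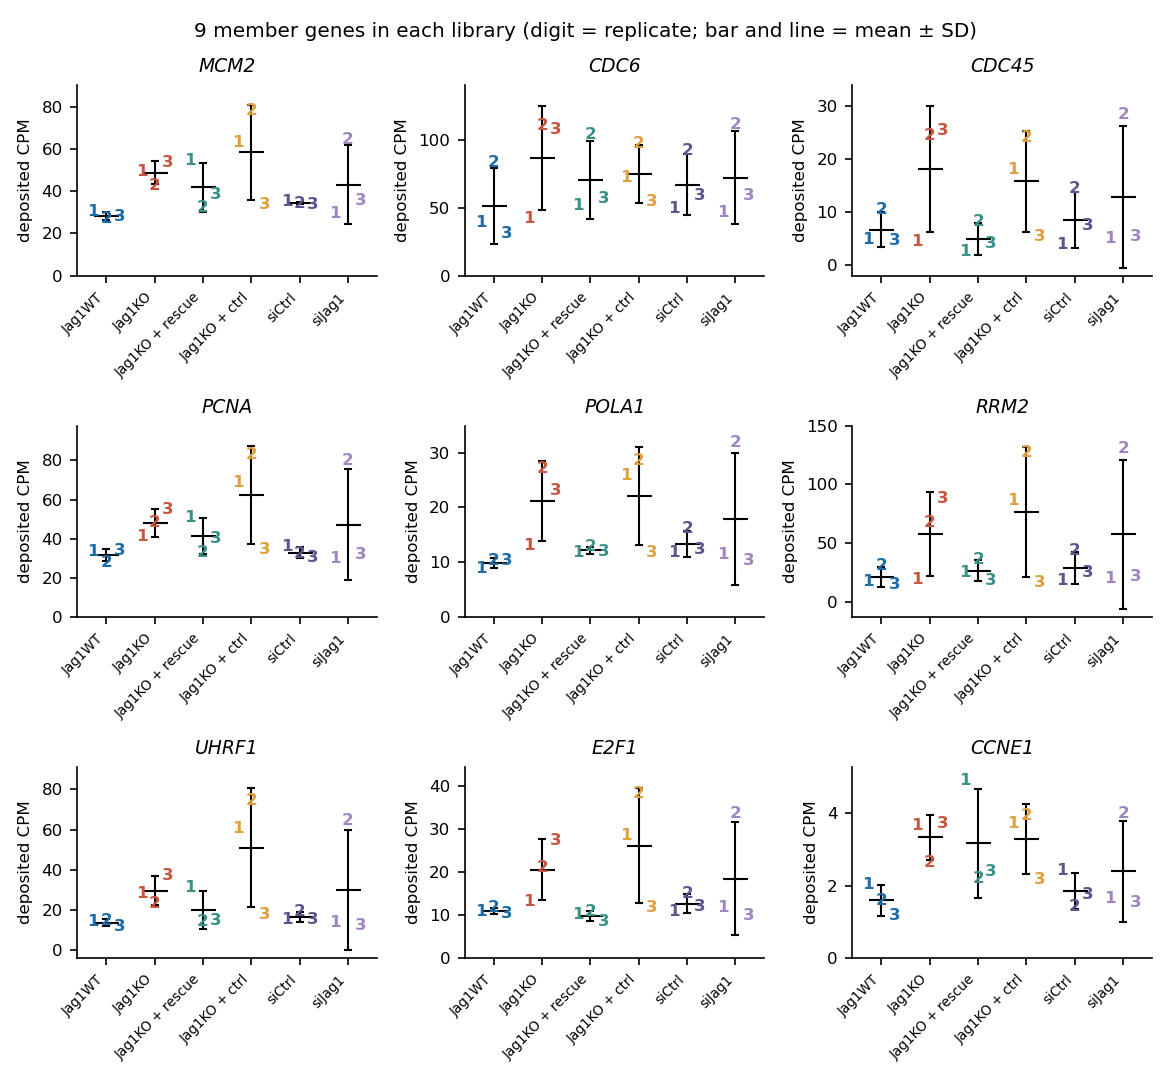
Deposited CPM (y axes, linear) of 9 member genes in the 6 conditions (x axes), with each library drawn as its replicate digit, the mean as a bar and the SD as a line. MCM2, PCNA, POLA1, UHRF1, E2F1 and CCNE1 separate Jag1WT from Jag1KO in all libraries, while in Jag1KO replicate 1 RRM2 (18.5 CPM) lies within the range of Jag1WT and CDC45 (4.57 CPM) just below it.

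G1/S control was represented by 7 genes. CCNE1 (Entrez gene 898), the cyclin that activates CDK2 in late G1, was at 2.02, 1.58 and 1.17 CPM in Jag1WT, 3.65, 2.63 and 3.73 in Jag1KO, 4.91, 2.19 and 2.4 in Jag1KO + rescue, 3.72, 3.95 and 2.17 in Jag1KO + ctrl, 2.4, 1.42 and 1.75 in siCtrl and 1.64, 4.002 and 1.54 in siJag1. CCNE1 was higher in all 3 Jag1KO than in all 3 Jag1WT libraries, and its highest value was in Jag1KO + rescue replicate 1. CCNE2 (Entrez gene 9134), the second E cyclin, was at 7.51, 6.99 and 6.98 CPM in Jag1WT, 12.1, 13.5 and 17.3 in Jag1KO, 23.6, 10.5 and 13.01 in Jag1KO + rescue, 26.4, 27.6 and 9.09 in Jag1KO + ctrl, 7.07, 8.03 and 10.96 in siCtrl and 6.41, 29.8 and 6.57 in siJag1. CCNE2 also separated Jag1WT from Jag1KO, and Jag1KO + rescue replicate 1, at 23.6 CPM, was close to Jag1KO + ctrl replicates 1 and 2.

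E2F1 (Entrez gene 1869), an activating E2F factor, was at 10.8, 11.7 and 10.2 CPM in Jag1WT, 13.1, 20.9 and 27.3 in Jag1KO, 10.1, 10.7 and 8.32 in Jag1KO + rescue, 28.4, 38.2 and 11.7 in Jag1KO + ctrl, 10.7, 14.97 and 11.9 in siCtrl and 11.7, 33.6 and 9.86 in siJag1. The groups of E2F1 separated in Jag1WT against Jag1KO, as for 21 of the 51 members, and in the rescue comparison, as for 7 of the 51. Over all genes 6.61% and 16% separated in that direction in each, so in the rescue comparison members separated no more often than all genes. The share separating in both was not counted. E2F1 had log2 fold changes of −0.91 ± 0.26 (SE, 95% interval −1.51 to −0.31, FDR 0.301), −1.43 ± 0.39 (SE, 95% interval −2.34 to −0.53, FDR 0.105) and −0.56 ± 0.45 (SE, 95% interval −1.60 to 0.48, FDR 0.969). E2F8 (Entrez gene 79733), a repressive E2F factor that is itself made in S phase, was at 2.02, 3.91 and 2.35 CPM in Jag1WT, 1.24, 7.41 and 13.3 in Jag1KO, 3.2, 3.39 and 1.58 in Jag1KO + rescue, 9.53, 14.6 and 1.2 in Jag1KO + ctrl, 1.84, 4.86 and 2.06 in siCtrl and 1.3, 14.6 and 2.24 in siJag1. E2F8 had one of the 3 largest differences in the siRNA comparison at −1.06 ± 0.86 (SE, 95% interval −3.07 to 0.94, FDR 0.969). E2F2, another activating factor, exceeded 1 CPM in 4 of the 18 libraries and was the member left out of the 3 main tests.

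MYBL2 (Entrez gene 4605), a factor that carries the program on towards mitosis, was at 2.52, 8.04 and 2.61 CPM in Jag1WT, 3.001, 18.8 and 21.7 in Jag1KO, 3.61, 8.27 and 4.16 in Jag1KO + rescue, 19.4, 23.2 and 4.87 in Jag1KO + ctrl, 4.03, 13.8 and 5.86 in siCtrl and 3.005, 27.8 and 5.32 in siJag1. MYBL2 had the largest difference of the members in Jag1WT against Jag1KO, −1.73 ± 0.72 (SE, 95% interval −3.39 to −0.08, FDR 0.535), with overlapping groups. DTL (Entrez gene 51514), which directs CDT1 to degradation, was at 14.7, 28.9 and 17.4 CPM in Jag1WT, 19.3, 53.5 and 59.5 in Jag1KO, 22.8, 30.4 and 21.3 in Jag1KO + rescue, 54.1, 56.6 and 21.5 in Jag1KO + ctrl, 14.9, 32.6 and 21.9 in siCtrl and 17.3, 70.1 and 21.3 in siJag1. DTL in replicate 2 of Jag1WT, Jag1KO + rescue and siCtrl was the highest of its condition. The median log2 fold changes of the tested G1/S genes were −1.09, −1.13 and −0.64.

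Of the fork checkpoint and repair genes, CLSPN (Entrez gene 63967), the mediator that passes the stalled-fork signal to CHK1, was at 11.7, 15.9 and 12.98 CPM in Jag1WT, 17.7, 29.1 and 35.8 in Jag1KO, 28.6, 19.8 and 16.8 in Jag1KO + rescue, 41.6, 59.7 and 13.5 in Jag1KO + ctrl, 12.4, 19.4 and 13.9 in siCtrl and 11, 62.8 and 13.6 in siJag1. CLSPN separated Jag1WT from Jag1KO, and its log2 fold changes were −1.03 ± 0.27 (SE, 95% interval −1.64 to −0.42, FDR 0.224), −0.82 ± 0.48 (SE, 95% interval −1.93 to 0.28, FDR 0.26) and −0.94 ± 0.63 (SE, 95% interval −2.40 to 0.52, FDR 0.969). BRCA1 (Entrez gene 672), which acts in recombination, was at 22.2, 34.1 and 17.5 CPM in Jag1WT, 20.1, 55.3 and 48.4 in Jag1KO, 15.3, 33.9 and 19.1 in Jag1KO + rescue, 43.3, 49.6 and 19.01 in Jag1KO + ctrl, 23.5, 46.1 and 26.1 in siCtrl and 26.1, 66.6 and 25.6 in siJag1. BRCA1 overlapped between the groups of each comparison. EXO1, a nuclease of mismatch repair and end resection, was among the 3 largest in Jag1WT against Jag1KO at −1.57 ± 0.59 (SE, 95% interval −2.93 to −0.20, FDR 0.472). The 6 genes had medians of −0.78, −0.77 and −0.32.

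**Figure D4:**
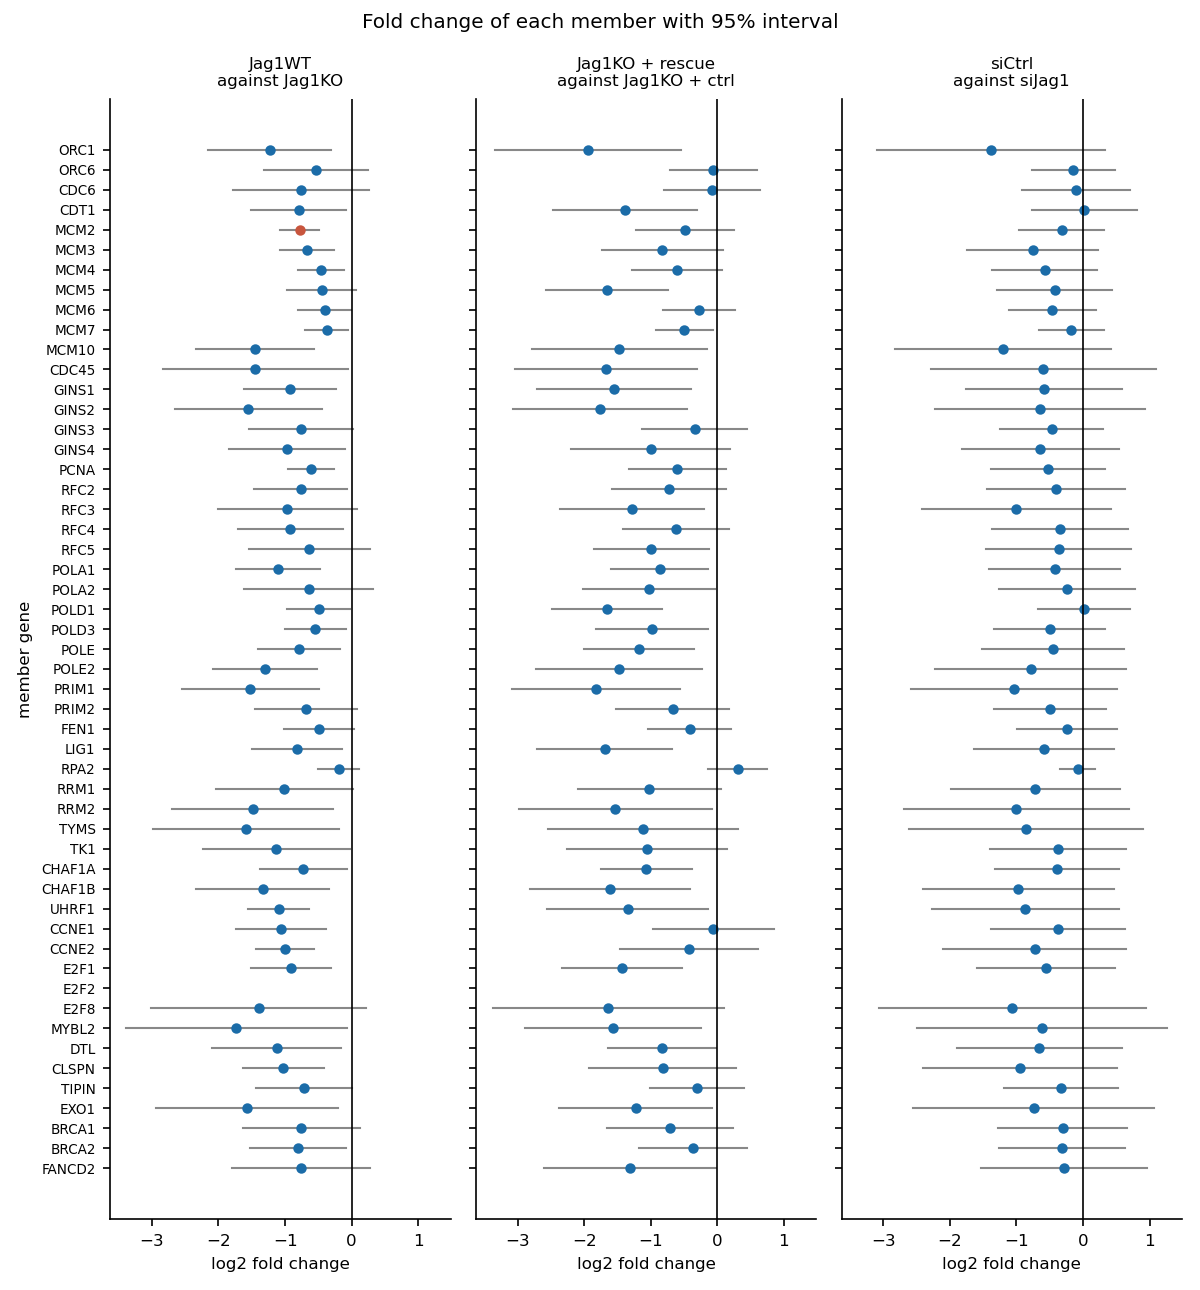
Log2 fold change (x axes, first group over second) of each member tested (y axis, ordered by role) in the 3 main comparisons, with 95% intervals from edgeR as lines. MCM2 in Jag1WT against Jag1KO is the 1 member called (red), and the intervals in siCtrl against siJag1 all hold 0.

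Calls were also counted by role with 1 library left out. Over all genes 4.68% were called lower without Jag1KO replicate 1 and 14.8% without Jag1KO + ctrl replicate 3. Without Jag1KO replicate 1, 3 of 10 licensing genes and 1 of 3 Okazaki fragment and single-strand genes were called lower in Jag1WT, beside 5 of 6 helicase activators, 5 of 5 clamp genes, 7 of 8 polymerase genes, 4 of 4 nucleotide genes, 3 of 3 chromatin genes, 5 of 6 G1/S genes and 6 of 6 checkpoint genes. Without Jag1KO + ctrl replicate 3, 7 of 10 licensing, 2 of 3 Okazaki fragment and single-strand, 5 of 6 helicase, 5 of 5 clamp, 8 of 8 polymerase, 4 of 4 nucleotide, 3 of 3 chromatin, 4 of 6 G1/S and 4 of 6 checkpoint genes were called lower with the rescue. Each library left out was the lowest of its condition for most members, so these counts are no separate support for a difference. They describe the roles, and the difference between roles was not tested.

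Within the conditions with more JAG1, too, replicate 2 was the highest library for 42 of 52 members in Jag1WT (37.1% of all genes), 43 in siCtrl (41.1%) and 33 in Jag1KO + rescue (35.7%). This was not particular to them, since replicate 2 was highest for 52 members in siJag1 and 51 in Jag1KO + ctrl, though for 16 in Jag1KO. In the conditions with more JAG1 the rise in replicate 2 did not cover all roles alike. The CPM of replicate 2 over the mean of replicates 1 and 3 had a median of 2.04 in Jag1WT, 1.96 in siCtrl and 1.85 in Jag1KO + rescue for the 4 nucleotide supply genes, each of which was above 1.5 in all 3 conditions. For the 10 licensing genes the median was 1.03, 1.10 and 0.805, and for all 12803 genes 0.994, 1.01 and 0.975. A ratio above 1.5 was found for 19, 19 and 18 of the 52 members, or 36.5%, 36.5% and 34.6%, against 4.73%, 6.02% and 10.5% of all genes.

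Among the 4 loaders, the ratio in Jag1WT, siCtrl and Jag1KO + rescue was 2.35, 1.70 and 1.91 for CDC6 and 1.94, 1.38 and 1.67 for ORC6. It was 1.11, 1.14 and 0.765 for ORC1 and 1.12, 1.30 and 1.09 for CDT1, and between 0.555 and 1.14 for the 6 ring subunits. The loaders were thus not alike, and ORC1 and CDT1 lay near ring subunits such as MCM5. MCM3, at 85.0, 58.6 and 75.9 CPM in Jag1WT, 75.5, 62.9 and 72.4 in siCtrl and 131, 61.8 and 92.2 in Jag1KO + rescue, was lowest in replicate 2 each time. Jag1WT and siCtrl are the same cells with and without a control transfection, and whether replicate 2 of these conditions shared a day of culture is not given in the sources used here. The ratio over the other libraries was 3.13 in Jag1WT for MYBL2, the highest of any member there.

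**Figure D5:**
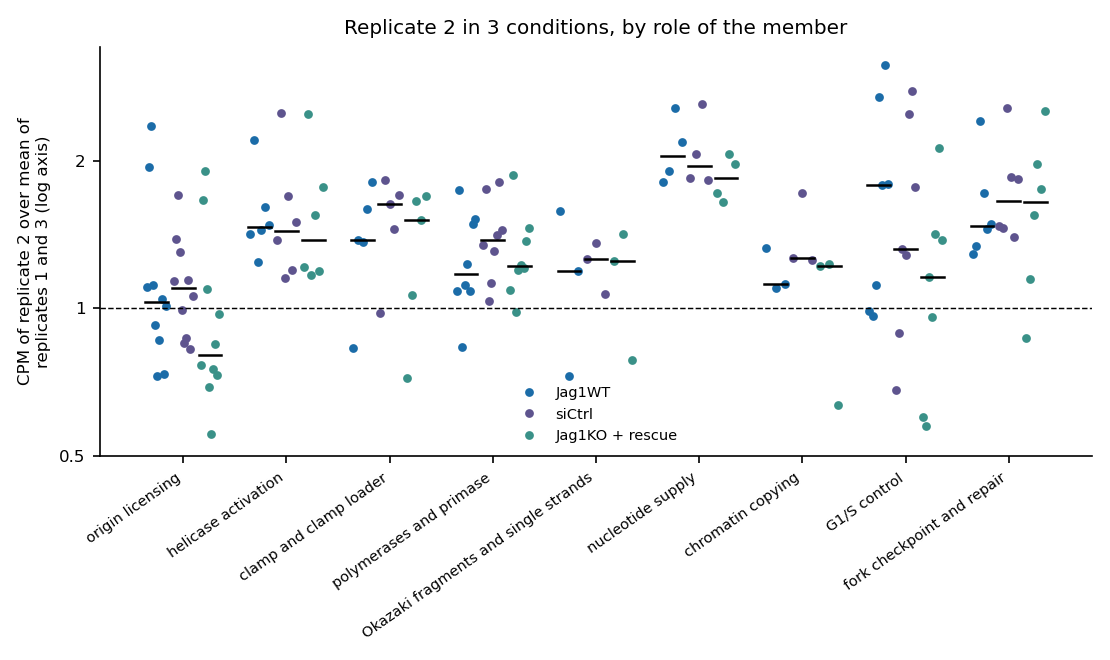
CPM of replicate 2 divided by the mean of replicates 1 and 3 (y axis, log scale) for each member (points) by role (x axis) in Jag1WT, siCtrl and Jag1KO + rescue, with the median of each role as a bar and a dashed line at 1. Nucleotide supply genes sit above 1.5 in all 3 conditions, and origin licensing genes lie on both sides of 1.

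JAG1 was not changed on purpose between the groups of 2 control comparisons, which share libraries with the main ones. In Jag1KO + ctrl against Jag1KO, 42 of 52 members were higher in Jag1KO + ctrl, with a median log2 fold change of 0.26. edgeR, limma and DESeq2 each called 0 members (edgeR 0% of all genes higher), and 0 reached an unadjusted p below 0.05 (3.75% of all genes were higher with such a p), though 18 did so, all higher, without Jag1KO + ctrl replicate 3 (11.8%). The median was 0.03, 0.40 and 0.48 without Jag1KO replicate 1, 2 or 3, and 0.64 and −0.09 without Jag1KO + ctrl replicate 3 or 2. In siCtrl against Jag1WT, 50 of 51 members were higher in siCtrl, with a median of 0.23 and 0 called (0% of all genes higher, edgeR), the 3 tools alike. An unadjusted p below 0.05 was reached by 3 members (0.545% of all genes), and by 21 with the replicate number as a block (4.82%). Without siCtrl replicate 2 the median was 0.05, with 34 of 51 members higher and 0 at such a p. Without Jag1WT replicate 2 it was 0.42, with 46 higher and 15 at such a p (3.27% of all genes). The median was 0.38 without siCtrl replicate 1 and 0.15 without Jag1WT replicate 3. The groups separated for MCM2, MCM5, ORC1, POLA1 and UHRF1 (3.4% of all genes). For MCM2 the 3 siCtrl libraries were between 33.8 and 35.1 CPM and the 3 Jag1WT libraries between 26.9 and 30.4 CPM, while the lowest Jag1KO library was at 42.8 CPM.

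Whether a member's fold change differed between the main comparisons was tested with all 18 libraries. At an FDR below 0.05, 0 of 51 members differed in each of the 3 pairs of comparisons by edgeR and by limma. Over all genes, 6.76% differed between the knockout and rescue comparisons by edgeR (7.45% by limma), 0.125% between the knockout and siRNA comparisons (0.133%) and 1.98% between the rescue and siRNA comparisons (1.13%). Of the members, 3, 0 and 3 had an unadjusted p below 0.05 by edgeR. The lowest FDR, 0.0697, belonged to POLD1, whose log2 fold change in the rescue comparison was lower by 1.70 than in the siRNA comparison (−1.66 against 0.01). With the replicate number as a block in the 18-library fit POLD1 passed the threshold, with a difference of −1.69 ± 0.47 (SE) and an FDR of 0.043 by edgeR, and 8.65% of all genes differed in that fit.

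The other replication genes, 47 genes outside the 52 such as the remaining origin, RFC and RPA subunits, the kinase CDC7 and CCNA2, went the same way with smaller differences. Of the 47, 44 were lower in Jag1WT than in Jag1KO (median −0.57), 37 lower in Jag1KO + rescue than in Jag1KO + ctrl (−0.60) and 39 lower in siCtrl than in siJag1 (−0.29). In each of the 3 comparisons 0 were called by edgeR, and 17, 15 and 0 had an unadjusted p below 0.05 with the lower mean in the first group. Over all genes 4.49%, 16.4% and 1.23% were lower with such a p. Without Jag1KO replicate 1, 23 of the 47 were called lower in Jag1WT (4.68% of all genes), and without Jag1KO + ctrl replicate 3, 23 were called lower with the rescue (14.8%). Each library left out had the lowest mean log2(CPM + 1) of this list in its condition, at 4.53 and 4.49. In replicates 1 to 3 that mean was 4.51, 5.58 and 4.55 in siJag1 and 4.51, 4.93 and 4.60 in siCtrl. Only siJag1 replicate 2 lay above the range of siCtrl, and siJag1 replicates 1 and 3 lay within it.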

How the data were processed

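The authors prepared stranded mRNA libraries from 300 ng of RNA per spheroid culture, aligned the reads to hg38 and counted them per gene with featureCounts. The deposited counts are raw whole numbers, the deposited CPM are these counts scaled by the authors with TMM factors (a signal whose sum differs between libraries), and the deposited RPKM divide this signal by gene length. No sample label fitted 3 of the RPKM columns, which were left aside, so RPKM were read for 15 libraries. MultiQC 1.5, R 3.6.1 and edgeR 3.28.0 are named in the submitters' processing notes. Of the rows, 292 carried no symbol, with at most 0.0442% of the counts.

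Counts were tested over all genes with the quasi-likelihood test of edgeR 4.0.16 (R 4.3.3, TMM) on the 6 libraries of each comparison. Testing was limited to genes over 1 CPM in 3 or more of the 6, p-values were adjusted by Benjamini-Hochberg over all of them, and a gene counted as called at an FDR under 0.05 with more than a 1.5-fold change. SEs were derived from the F statistic and are approximate. Differences between comparisons used all 18 libraries (genes over 1 CPM in 9 or more). Alternatives were limma 3.58.1 on log2(CPM + 1) or log2(CPM + 0.5), DESeq2 1.42.0, RLE size factors, no filter, FDR alone, the replicate number as a block, and each library left out in turn. The scripts were tested on simulated data.

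The correlation across genes of deviations from the group means was 0.542, 0.522 and 0.263 for same-numbered libraries of siCtrl and siJag1 and 0.594, 0.711 and 0.209 for siCtrl and Jag1WT, so the numbers may pair these libraries. The main fits left the replicate number out in every comparison, and fits with it as a block are given beside them as an alternative. Values in every library are given for 26 members fixed as representatives of their roles. In each main comparison the 3 members with the largest and the 3 with the smallest fold change are also named. Fold changes are given for 9 of the representatives, for MCM2 and for these largest and smallest members. The members, their roles, the other lists and the searched promoter words were chosen with earlier results of these data known.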

Additional observations from a re-analysis of the deposited data

How the results depend on the processing

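In Jag1WT against Jag1KO the 1 member called became 9 with DESeq2, 3 without a filter on low values, 8 when a replicate block was fitted, and 0 to 39 with 1 library left out (39 without Jag1KO replicate 1). Over all genes the 38 of 12928 called lower became 119 with DESeq2, 72 of 19639 without the filter and 138 with the block. Without Jag1KO replicate 1 they were 600 of 12827. In the rescue comparison 0 became 18 with DESeq2 (7.72% of all genes) and 0 to 42 with 1 library left out (42 without Jag1KO + ctrl replicate 3, 14.8% of all genes). In Jag1KO + ctrl against Jag1KO, 0 to 1 members were called higher with 1 library left out (1 without Jag1KO + ctrl replicate 3, with 113 of 12874 genes), and the median ranged from −0.088 (without Jag1KO + ctrl replicate 2) to 0.64. In siCtrl against siJag1 the median ranged from −0.77 to 0.29 (without siJag1 replicate 2). The cause was not tested. With the block, 1 member differed between the rescue and siRNA comparisons, against 0 without it. Apart from the rise from 1 to 8 in Jag1WT against Jag1KO, the block changed no count of members called. Correlations of same-numbered libraries were 0.632, 0.667 and −0.0136 for Jag1WT and Jag1KO and −0.208, 0.345 and 0.241 for the rescue pair. They were −0.356, 0.279 and −0.608 for Jag1KO + ctrl and Jag1KO. In none of these pairs were all 3 positive, and the block is an alternative only.

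Log2 fold changes that changed sign with 1 library left out ranged, in siCtrl against siJag1, from −0.40 to 0.36 for CDC6, −1.17 to 0.74 for CDC45, −0.77 to 0.11 for PCNA, −0.70 to 0.31 for POLA1, −0.45 to 0.29 for FEN1, −1.43 to 0.49 for RRM2, −1.24 to 0.37 for UHRF1, −0.86 to 0.22 for E2F1, −1.34 to 0.33 for CLSPN, −1.64 to 0.76 for E2F8, −1.61 to 0.25 for MCM10, −1.799 to 0.16 for ORC1, −0.20 to 0.46 for POLD1, −0.20 to 0.51 for CDT1 and −0.14 to 0.0015 for RPA2. In the rescue comparison they ranged from −0.48 to 0.15 for CDC6, −0.36 to 0.12 for ORC6 and −0.51 to 0.13 for CCNE1. No other named fold change reversed under these alternatives. Reads per member and library ranged from 2 to 5042, so E2F2 and other low members carry the largest counting error.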

Other observations

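Mitosis genes, which peak after S phase, varied more than the replication genes. All 20 of the list, such as PLK1, AURKB and TOP2A, had a lower mean in the first group of each main comparison, with medians of −1.27 between Jag1WT and Jag1KO, −1.66 in the rescue comparison and −0.70 in siCtrl against siJag1, and 0 were called by edgeR in each (0, 8 and 0 with an unadjusted p below 0.05). Over all genes 4.49%, 16.4% and 1.23% were lower with such a p. Without Jag1KO replicate 1, 18 of 20 were called lower in Jag1WT (4.68% of all genes), and without Jag1KO + ctrl replicate 3, 15 were called lower with the rescue (14.8%). Without siJag1 replicate 2, all 20 were higher in siCtrl, with a median of 0.53 and 0 called. Their mean log2(CPM + 1) was 3.75, 6.29 and 6.45 in replicates 1 to 3 of Jag1KO, 6.51, 7.06 and 4.57 in Jag1KO + ctrl and 4.38, 6.87 and 4.67 in siJag1. Each library left out above was thus the extreme one of its condition. In Jag1WT the mean was 4.00, 5.52 and 4.05, with replicate 2 highest, as for the replication genes.

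CDK inhibitors and arrest genes, of which 10 of 12 were tested, had medians of 0.11, 0.10 and 0.01 in the 3 main comparisons, with 0 called. Hypoxia genes had a mean log2(CPM + 1) of 7.32, 6.77 and 6.35 in replicates 1 to 3 of Jag1KO + ctrl and between 5.16 and 6.44 in the other 15 libraries. ATF4 stress genes were at 6.74 and 5.95 in Jag1KO + ctrl replicates 1 and 2 and at 6.98 in siJag1 replicate 2, and between 7.58 and 8.32 in the other 15 libraries, Jag1KO replicates 2 and 3 included (8.01 and 7.83). The part of these genes in the differences of the replication genes was not tested.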
